A study of Mus musculus with 6 samples.

Results

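The 52 genes described here make and control the DNA copying machinery of S phase. All 52 were chosen by name, as known replication and S-phase genes, out of 19938 genes measured. The choice was made with earlier results of these data known. Each gene was read as its brightest probe set that the array annotation ties to 1 gene symbol. The genes were measured in whole lungs of 3 *Tnrc6a* null and 3 WT mouse embryos at E18.5, with total RNA of 1 embryo on each Affymetrix Mouse Gene 1.0 ST array. The null embryos carry a β-galactosidase gene trap in both copies of *Tnrc6a* (GW182) and the WT embryos carry none, and all 6 are labelled as C57Bl/6, to which the mutants were backcrossed from a mixed background. The insertion is in the germline and the whole lung was extracted, so a value averages over epithelium, mesenchyme, vessels and blood. No label says which litter a lung came from. The study asked how loss of *Tnrc6a* changes lung gene expression, and the comparison below asks it of the genes of DNA replication. From the lung transcriptomes the paper reports no significant change in genes tied to proliferation or differentiation of other lung cell types. It does not name those genes. Values are the processed signals deposited by the authors on a log scale. The labels give its base as 2, which the values alone cannot settle, so differences are given on that scale as null minus WT and no fold is derived.

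DNA is copied once in each cell cycle. In G1 the origin recognition complex, with Cdc6 and Cdt1, loads the ring-shaped MCM helicase onto origins. At the start of S phase the kinase Cdc7 with Dbf4 and the cyclin-dependent kinases turn the loaded ring into an active helicase by adding Cdc45 and the GINS complex. Primase and the polymerases then copy the strands behind a sliding clamp, Pcna. E2F transcription factors switch on most of these genes as cells leave G1, so their RNA is a common measure of how many cells of a tissue are cycling. In bulk samples of this kind, fewer cells of a type and less RNA per cell cannot be told apart.

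The E2F binding word is shown first, because it is the sequence that many of these genes have in common. RefSeq promoters (GRCm38.p6, 250 bases before to 50 after an annotated start) were found for 44 of the 52 genes. The words TTTCCCGC, TTTGGCGC, TTTCGCGC and TTTGCCGC were searched on both strands, and 2 of them on opposite strands can overlap. Of the 44 genes, 17 (38.6%) held such a word, against 543 of 15614 measured genes with a promoter (3.48%). The following 30-base windows each show 1 word of a replication gene in capitals, written 5′ to 3′ in the direction of the gene.
Orc1 (chr4:108579416-108579445, + strand): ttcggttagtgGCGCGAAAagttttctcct
Cdc6 (chr11:98908002-98908031, + strand): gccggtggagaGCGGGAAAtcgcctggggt
Mcm3 (chr1:20820263-20820292, - strand): cgggaaaacttgggaagtTTTGGCGCcaag
Mcm5 (chr8:75109345-75109374, + strand): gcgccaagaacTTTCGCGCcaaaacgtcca
Mcm7 (chr5:138171849-138171878, - strand): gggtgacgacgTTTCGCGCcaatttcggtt
Pola1 (chrX:93632275-93632304, - strand): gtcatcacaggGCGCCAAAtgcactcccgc
Lig1 (chr7:13278841-13278870, + strand): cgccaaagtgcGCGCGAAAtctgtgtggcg
E2f2 (chr4:136172294-136172323, + strand): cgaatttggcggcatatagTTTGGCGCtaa
Dnmt1 (chr9:20952574-20952603, - strand): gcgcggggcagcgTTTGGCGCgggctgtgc
*Mcm6*, a subunit of the helicase ring, held 3 such words in the 150 bases before its start, with the first pair overlapping on opposite strands, and its stretch is shown whole with the words in capitals.
Mcm6 (chr1:128359706-128359855, - strand): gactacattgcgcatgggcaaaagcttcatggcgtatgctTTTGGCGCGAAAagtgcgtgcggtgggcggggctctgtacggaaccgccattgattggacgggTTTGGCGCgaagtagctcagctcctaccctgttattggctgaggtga

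A word match is a description of these letters and not a measured binding site. In *Dut*, *Rrm2*, *Chek1*, *Pcna* and *E2f1* the window held no exact word. No RefSeq promoter was found for *Mcm4*, *Gins1*, *Gins2*, *Gins4*, *Prim2*, *Pole*, *Rfc2* and *Ccne2*, so these genes were not searched. The CHR word TTTGAA, found in promoters of many mitotic genes, was present in 9 of the 44 replication genes (20.5%), in 13 of 20 genes of mitosis (65%) and in 17.3% of all measured genes. The CCAAT box was present in 56.8% of the replication genes and in 41.7% of all. Genes of mitosis held an E2F word in 1 of 20 promoters (5%) and inhibitors of the cell cycle in 0 of 9.

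**Figure D1:**
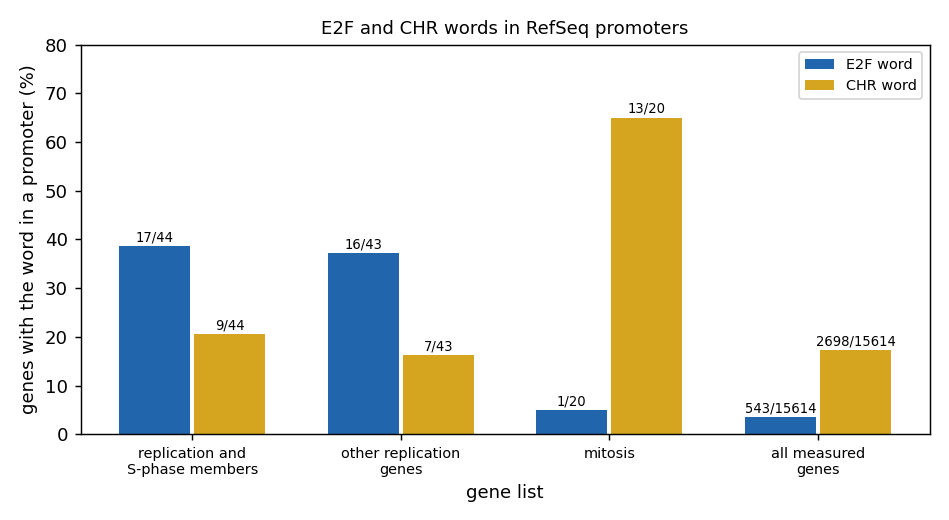
Share of genes with an E2F or a CHR word in a RefSeq promoter, in percent (vertical axis, starting at 0), for 4 gene lists (horizontal axis), with the counts above the bars. The E2F word stands at 38.6% of the replication and S-phase genes and at 3.48% of all measured genes, and the CHR word at 65% of the mitosis genes.

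Nearly all of the replication and S-phase genes had a higher mean in the *Tnrc6a* null lungs, by small amounts, and no single gene of them passed the test. Of the 52 genes, 49 were higher on average, against 49.2% of all genes. The median difference was 0.162 on the deposited log scale, with quartiles of 0.097 and 0.238, against a median of 0.000 over all genes. At an adjusted p of 0.05 from limma 0 of the 52 passed, where 1 gene of 19938 did (0.00502%), and that gene was *Tnrc6a* itself. The methods' t-test passed 0 of all 19938 genes, *Tnrc6a* included. At an unadjusted p under 0.05 from limma 4 of the 52 were higher (2.46% of all genes were) and 1 was lower (2.96% of all genes were). Every null lung lay above every WT lung in 6 genes, *Chek1*, *Dut*, *Lig1*, *Orc1*, *Mcm10* and *Gins4*, against 4.67% of all genes. The opposite order held in 1, *E2f2*, against 5.51% of all genes. The median standard error of a difference was 0.130, against which the median difference was little larger. *Tnrc6a* had signals of 5.45, 5.04 and 5.40 in the null lungs and 7.38, 7.13 and 7.18 in the WT lungs, lower in each null lung. The lung genes *Nkx2-1*, *Sftpc* and *Ager* lay between 8.20 and 11.82 in all lungs. Arrays of different lungs correlated over probe sets at 0.963 to 0.988, and the highest value was between null replicate 3 and WT replicate 1, which correlated with lungs of their own genotype at 0.964 to 0.971. No label names a batch these lungs share.

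**Figure D2:**
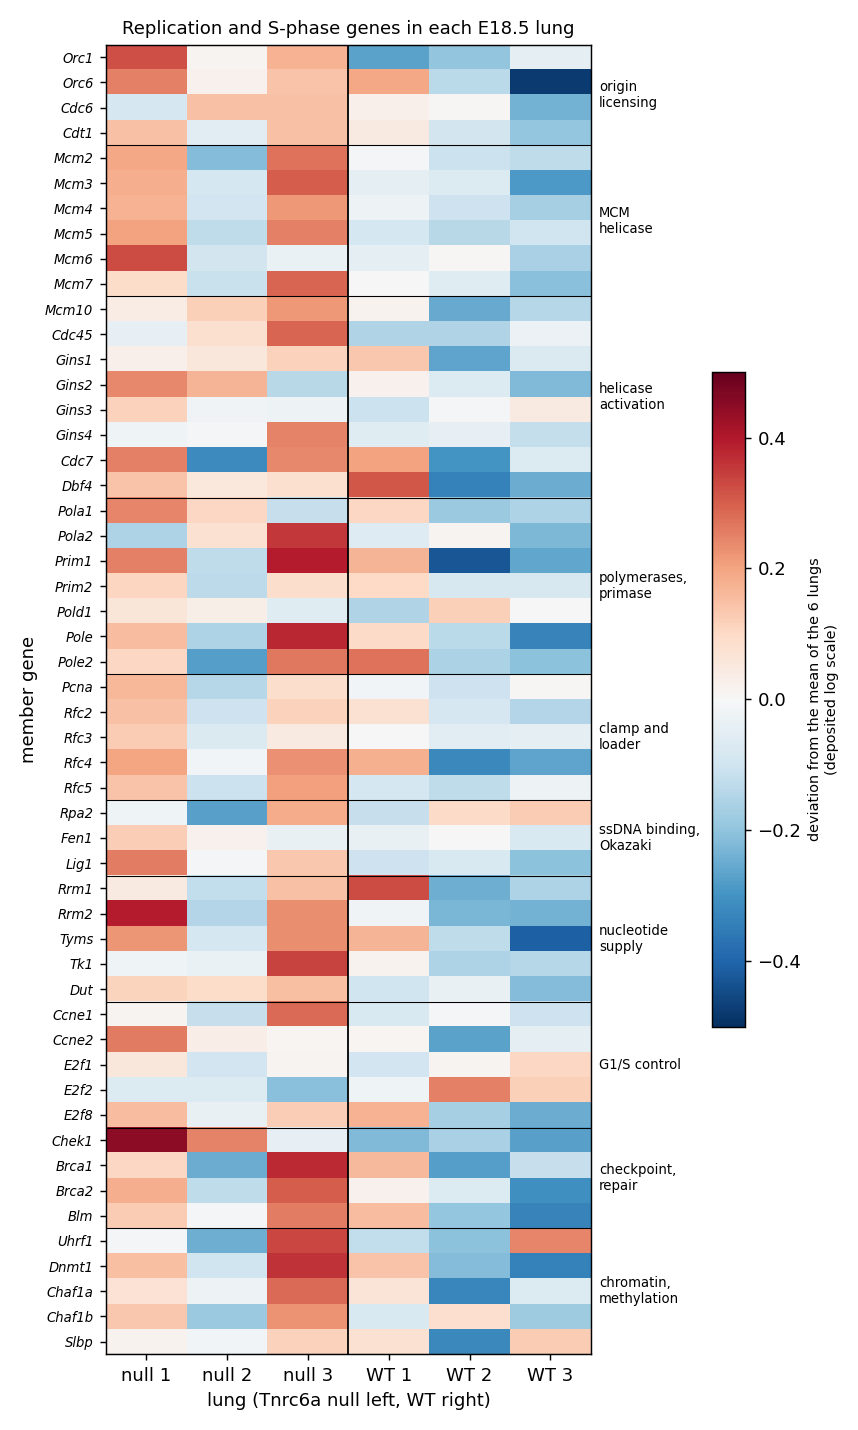
Deviation of each of the 52 genes (rows, grouped by role) from its own 6-lung mean, in colour (deposited log scale), in each null lung (left) and WT lung (right). Null replicates 1 and 3 are above the mean in 44 genes each and null replicate 2 in 15, against 26, 9 and 7 genes in WT replicates 1, 2 and 3. Of all genes, 49.1%, 55.9% and 44.1% are above their mean in null replicates 1, 2 and 3. In WT replicates 1, 2 and 3 these shares are 32.6%, 57.1% and 60.1%.

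Origin licensing marks where copying will start, and all 4 of its genes had a higher null mean, by a median of 0.220. *Orc1*, the ATPase subunit of the origin recognition complex, had signals of 4.10, 3.79 and 3.95 in the null lungs, against 3.51, 3.58 and 3.73 in the WT lungs. The genotypes did not overlap, although the gap between the lowest null and the highest WT lung was 0.06. The difference of *Orc1* was 0.34 with a standard error of 0.142 (adjusted p = 0.89 from limma), and its signal was among the lowest of the 52. *Orc6*, the smallest subunit of that complex, had 6.79, 6.56 and 6.68 in the null lungs, against 6.73, 6.40 and 6.06 in the WT lungs, so that WT replicate 1 stood among the null lungs and WT replicate 3 stood apart below. For *Cdc6* and *Cdt1*, the pair that loads the helicase, the differences were 0.14 and 0.16, with standard errors of 0.131 and 0.107.

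The 6 subunits of the MCM helicase, which unwinds the DNA ahead of the fork, all had a higher null mean, by 0.13 to 0.27 and with a median of 0.188. *Mcm3* had 5.51, 5.24 and 5.63 in the null lungs, against 5.28, 5.26 and 5.04 in the WT lungs, a difference of 0.27 with a standard error of 0.130. *Mcm5* had 6.59, 6.26 and 6.64 in the null lungs, against 6.30, 6.25 and 6.29 in the WT lungs, with a difference of 0.22. *Mcm2* had 6.59, 6.18 and 6.67 in the null lungs, against 6.39, 6.29 and 6.27 in the WT lungs, and *Mcm4*, *Mcm6* and *Mcm7* stood at 0.20, 0.13 and 0.18. The order of the lungs recurred from subunit to subunit. Null replicate 1 was above every WT lung in 6 of the 6, and null replicate 3 in 5, all but *Mcm6*. Null replicate 2 was above every WT lung in none of the 6 and was the lowest null lung in all of them. Null replicates 1, 2 and 3 were above every WT lung in 25.7%, 26.1% and 23.8% of all genes. The share of all genes with null replicate 2 as the lowest null lung was 23.8%. None of the 6 separated the genotypes or lay at an unadjusted p under 0.05. Without null replicate 2 the median of the subunits was 0.303, and without null replicate 3 it was 0.142.

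The 8 genes that turn the loaded ring into a working helicase were all higher on average, with a median of 0.163. *Mcm10*, which helps to start the helicase, had 5.12, 5.20 and 5.30 in the null lungs, against 5.10, 4.83 and 4.94 in the WT lungs. Its genotypes were kept apart by 0.02, and the difference was 0.25 with a standard error of 0.113. *Cdc45*, the partner that rides with the ring, had 5.76, 5.88 and 6.09 in the null lungs, against 5.65, 5.65 and 5.77 in the WT lungs, an overlap of 0.01. *Gins4*, 1 of the 4 GINS subunits, had 6.94, 6.95 and 7.21 in the null lungs, against 6.90, 6.92 and 6.84 in the WT lungs. The genotypes did not overlap, by a gap of 0.02, and null replicate 3 stood apart above. The other GINS subunits had differences of 0.13 for *Gins1*, 0.18 for *Gins2* and 0.05 for *Gins3*. *Cdc7* and *Dbf4* encode the kinase and its activating subunit. Their differences were 0.11 and 0.18, and in *Dbf4* WT replicate 1, at 6.09, was the highest of all lungs. In this group null replicate 2 was above every WT lung in 4 of 8 genes, against 26.1% of all genes.

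The 7 genes of the copying enzymes were all higher on average with a median of 0.157 and a range from 0.02 for *Pold1*, the catalytic subunit of the lagging-strand polymerase, to 0.34 for *Prim1*, the catalytic subunit of primase. *Prim1* had 5.07, 4.69 and 5.21 in the null lungs, against 4.99, 4.39 and 4.56 in the WT lungs. WT replicate 1 overlapped the null lungs, and the standard error was 0.188. *Prim2*, the large subunit of the same enzyme, had 6.40, 6.16 and 6.38 in the null lungs, against 6.39, 6.21 and 6.21 in the WT lungs, with a difference of 0.04. *Pole*, the catalytic subunit of the leading-strand polymerase, stood at 0.25, with a standard error of 0.163, and its accessory subunit gene *Pole2* at 0.06. *Pola1* and *Pola2*, whose products work with primase, stood at 0.16 and 0.18. *Pold1* had 5.79, 5.76 and 5.67 in the null lungs, against 5.58, 5.85 and 5.73 in the WT lungs, which is a difference well inside the spread of either genotype.

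The sliding clamp and its loader had a median difference of 0.103. *Pcna*, the clamp and the brightest of the 52 genes, had 8.17, 7.86 and 8.09 in the null lungs, against 7.99, 7.90 and 8.01 in the WT lungs, with a difference of 0.07 and a standard error of 0.094. Its second probe set on the array gave values within 0.02 of the first in every lung, and a difference of 0.06. Of the clamp loader genes, *Rfc4* had 6.84, 6.63 and 6.87 in the null lungs, against 6.82, 6.32 and 6.38 in the WT lungs, and a difference of 0.27. *Rfc5*, *Rfc2* and *Rfc3* stood at 0.16, 0.10 and 0.07. In all 5 genes null replicates 1 and 3 lay above every WT lung and null replicate 2 was the lowest null lung. Of all genes, 8.04% met the first condition and 23.8% the second.

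Behind the fork, *Lig1*, the ligase that seals Okazaki fragments, had 6.61, 6.35 and 6.49 in the null lungs, against 6.25, 6.28 and 6.15 in the WT lungs. All null lungs were above all WT lungs, by at least 0.07, and the difference was 0.26 with a standard error of 0.096 (unadjusted p = 0.0258 and adjusted p = 0.89 from limma). *Fen1*, the nuclease that trims the same fragments, had 5.13, 5.03 and 4.97 in the null lungs, against 4.97, 5.01 and 4.93 in the WT lungs, and a difference of 0.07. *Rpa2*, a subunit of the single-strand binding protein, had 5.68, 5.43 and 5.89 in the null lungs, against 5.59, 5.80 and 5.83 in the WT lungs. It is 1 of the 3 genes that were lower on average, at -0.07 with a standard error of 0.133, and its genotypes overlapped.

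The 5 genes of nucleotide supply were higher on average, with a median difference of 0.237. *Dut*, the dUTPase that keeps uracil out of DNA, had 6.10, 6.08 and 6.14 in the null lungs, against 5.89, 5.95 and 5.77 in the WT lungs. The 3 null lungs lay close together, with an SD of 0.03, and 0.13 above the highest WT lung, the widest gap of the 52 genes. Its difference was 0.24 with a standard error of 0.089 (unadjusted p = 0.0266 from limma). *Rrm2*, the subunit that limits ribonucleotide reductase in S phase, had 6.86, 6.32 and 6.70 in the null lungs, against 6.45, 6.24 and 6.23 in the WT lungs, a difference of 0.32 with a standard error of 0.141. *Rrm1*, the stable large subunit, had 7.27, 7.10 and 7.37 in the null lungs, against 7.55, 6.98 and 7.07 in the WT lungs. Here WT replicate 1 was the highest lung and the difference was 0.05. *Tyms*, thymidylate synthase, and *Tk1*, thymidine kinase, stood at 0.24 and 0.19, and the second probe set of *Tk1* at 0.24.

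Regulators of the step from G1 to S held 2 of the 3 genes with a lower null mean. *E2f2*, an activator of S-phase genes, had 5.91, 5.91 and 5.77 in the null lungs, against 5.96, 6.23 and 6.10 in the WT lungs, without overlap of the genotypes. The difference was -0.23 with a standard error of 0.101 (unadjusted p = 0.0479 and adjusted p = 0.89 from limma). *E2f1*, a second activator, had 6.50, 6.35 and 6.46 in the null lungs, against 6.35, 6.46 and 6.55 in the WT lungs, with a difference of -0.02 that turned to 0.008 with quantile normalization. *E2f8*, a repressor that E2F itself induces, stood at 0.16. The E-type cyclins, partners of Cdk2 at the start of S phase, stood at 0.12 for *Ccne1* and 0.20 for *Ccne2*. In *Ccne2* the lowest null lung and the highest WT lung were equal to 2 decimals, with 5.33, 5.10 and 5.08 in the null lungs and 5.08, 4.80 and 5.02 in the WT lungs.

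Of the checkpoint and repair genes active in S phase, *Chek1*, the kinase that halts the cycle when forks stall, had the largest difference and the smallest p of all 52. It had 5.47, 5.27 and 4.98 in the null lungs, against 4.80, 4.86 and 4.75 in the WT lungs. The WT lungs lay close together, with an SD of 0.06, and the null lungs spread more, with an SD of 0.25. In contrast to most of the genes, null replicate 3 was here the lowest null lung. The difference was 0.44 with a standard error of 0.137 (unadjusted p = 0.0115 and adjusted p = 0.89 from limma). *Chek1* lay at an unadjusted p under 0.05 in all 20 of the fits that held it, and its smallest adjusted p in any of them was 0.121. *Brca2*, which acts in repair of broken forks, stood at 0.24, the helicase gene *Blm* at 0.25 and *Brca1* at 0.15. In these 3 genes null replicate 3 was the highest lung, at 5.07, 4.88 and 4.93, and WT replicate 1 was the highest WT lung.

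Genes that restore chromatin and DNA methylation on the new strands were all higher on average, with a median of 0.113. *Dnmt1*, the maintenance methyltransferase, had 7.0, 6.75 and 7.21 in the null lungs, against 6.99, 6.63 and 6.51 in the WT lungs, with a difference of 0.28 and a standard error of 0.151. *Uhrf1*, which brings that enzyme to hemimethylated sites, had 5.32, 5.08 and 5.66 in the null lungs, against 5.20, 5.12 and 5.57 in the WT lungs, and a difference of 0.06. These partners differed in which WT lung was high, as WT replicate 3 was the lowest WT lung for *Dnmt1* and the highest for *Uhrf1*. The histone chaperone genes *Chaf1a* and *Chaf1b* stood at 0.22 and 0.11. *Slbp*, which binds the stem-loop of replication-dependent histone mRNAs, stood at 0.08 with its brightest probe set and at -0.08 with its second.

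**Figure D3:**
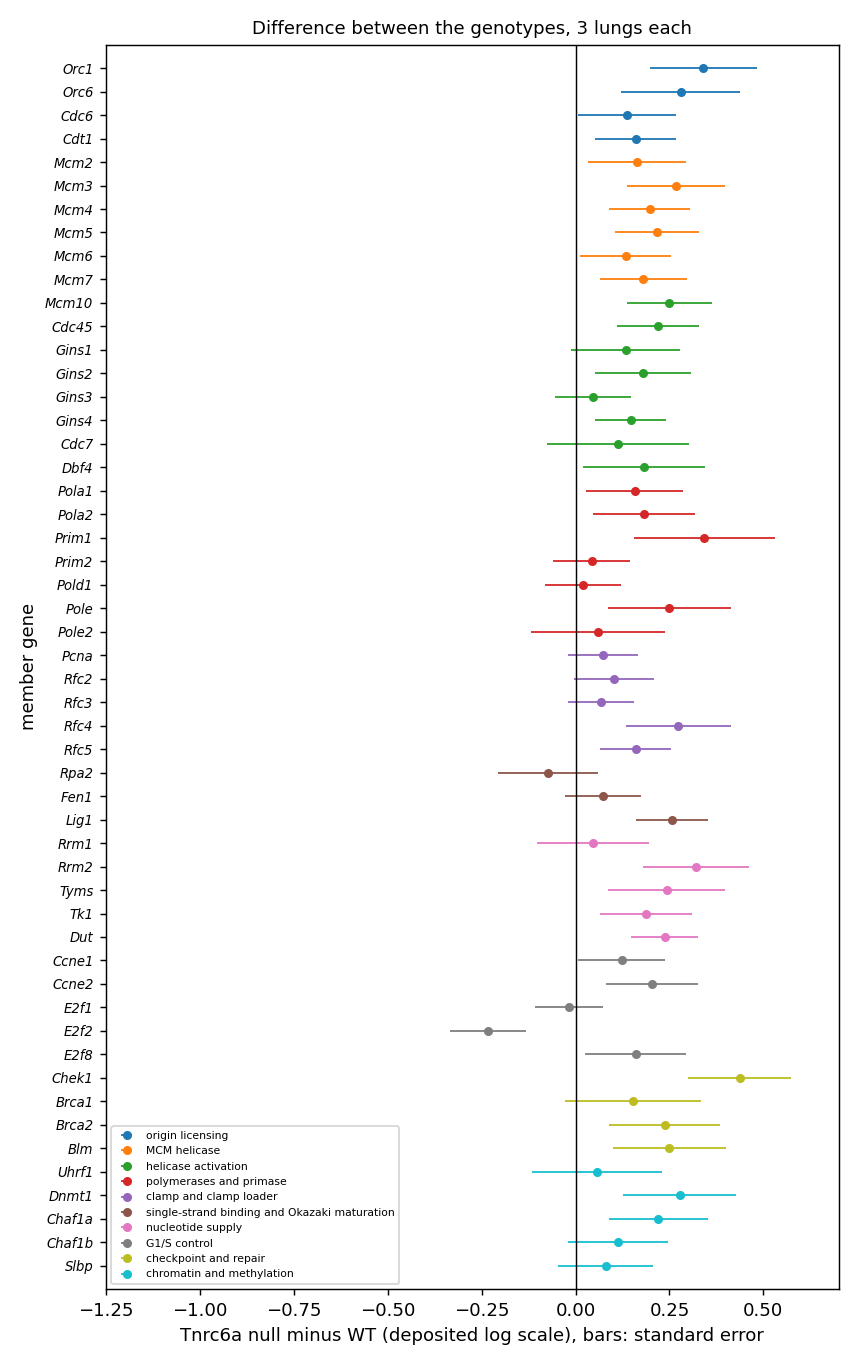
Difference of each of the 52 genes, *Tnrc6a* null minus WT, on the deposited log scale (horizontal axis), with genes on the vertical axis coloured by role and bars for standard errors from limma (3 lungs each). Only *E2f2*, *Rpa2* and *E2f1* lie below 0, and *Chek1* is highest at 0.44.

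The lungs of 1 genotype differed among themselves. Over the 52 genes the median difference from the WT mean was 0.213, 0.030 and 0.283 in null replicates 1, 2 and 3, against 0.102, -0.027 and -0.063 in WT replicates 1, 2 and 3. Over all genes the same medians were -0.010, 0.013 and -0.020 in the null lungs and -0.073, 0.027 and 0.037 in the WT lungs. Null replicate 3 was the highest of the 6 lungs in 27 genes (51.9%, against 18.4% of all genes), and null replicate 1 in 17 (32.7%, against 18.2%). Null replicate 2 was the lowest null lung in 38 of the 52 genes, against 23.8% of all genes. On the WT side, replicate 1 was the highest WT lung in 32 genes, against 22.5% of all genes. WT replicate 1 lay above null replicate 2 in 36 genes, a count for which the share of all genes was not computed. Null replicates 1 and 3 thus stood high, WT replicates 2 and 3 low, and null replicate 2 and WT replicate 1 between them. The median SD of a gene was 0.163 over the null lungs and 0.131 over the WT lungs, against 0.144 and 0.137 over all genes. Counts of single genes moved with the lungs that were kept. Without WT replicate 1 the genotypes did not overlap in 23 genes, against 8.45% of all genes, and 13 were higher at an unadjusted p under 0.05, against 2.24%. Without null replicate 2 these counts were 27, against 8.04%, and 14, against 1.97%. Without WT replicate 3 only 2 were higher at that p, against 1.96%. With both null replicate 3 and WT replicate 1 left out, the lungs that stood together over all probe sets, the genotypes did not overlap in 25 genes, against 18.2% of all, 12 were higher at that p, against 5.78%, and the median difference was 0.158. The median difference was 0.235 with null replicate 2 left out, 0.230 with WT replicate 1 left out and 0.117 with null replicate 3 left out. No gene of the 52 passed an adjusted p of 0.05 without any of the lungs.

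The direction of all genes moved with their signal on these arrays, and the replication genes were compared with that drift. The median difference of all genes was 0.153 in the dimmest decile of signal and -0.063 in the brightest. The replication genes lay mostly in the middle of the range, between a mean signal of 3.75 for *Gins1* and that of *Pcna*. Measured against the median of all genes in the same decile of signal, 50 of the 52 were higher, with a median excess of 0.200. The exceptions were *Rpa2* and *E2f2*. In *Orc1* and *Gins1*, the dimmest of the genes, the median of their decile was 0.110, so that *Gins1* exceeded it by 0.023 and *Orc1* by 0.230.

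**Figure D4:**
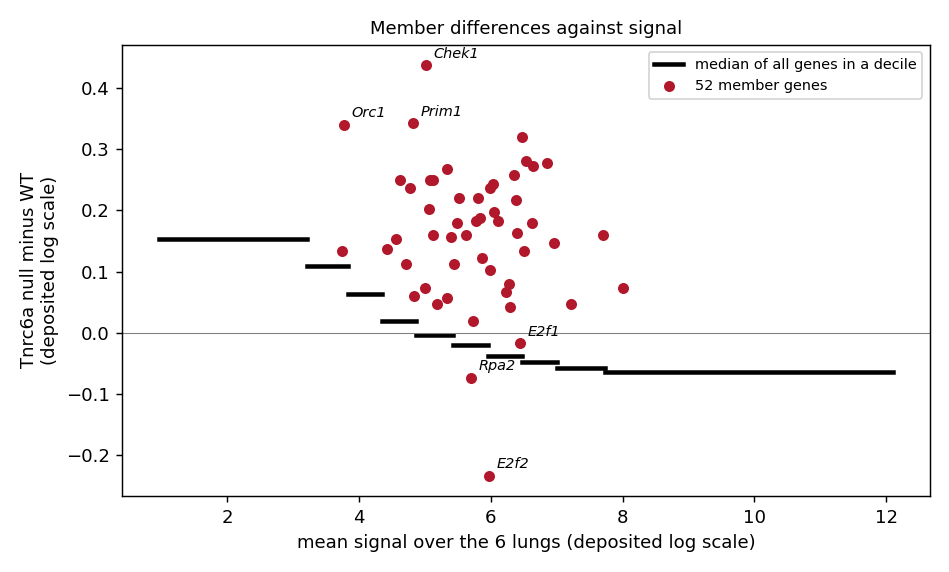
Difference of the 52 genes, *Tnrc6a* null minus WT (vertical axis), against the mean signal over the 6 lungs (horizontal axis), both on the deposited log scale. Black lines are the medians of all genes in each decile of signal, which go down from 0.153 to -0.063, and 50 of the 52 points lie above the line of their decile.

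Genes with and without an E2F word in the promoter are given side by side. The median difference was 0.157 over the 17 genes with a word, 16 of them higher on average, and 0.183 over the 27 without, of which 25 were higher. *E2f2*, the lowest of the 52, carries the word shown above, and *Chek1*, the highest, does not.

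Other genes of replication and of S phase were listed by function, also with earlier results of these data known, and are given for comparison. Of 52 measured, 39 were higher on average, against 49.2% of all genes, with a median difference of 0.128. At an unadjusted p under 0.05 from limma 4 were higher (2.46% of all genes were) and 0 lower (2.96%). At an adjusted p 0 passed, and every null lung lay above every WT lung in 9, against 4.67% of all genes. *Polq*, a polymerase of end joining, had 4.90, 4.48 and 4.62 in the null lungs, against 4.17, 4.34 and 4.24 in the WT lungs, and the largest difference of this list at 0.42. *Pole4*, a small subunit of the leading-strand polymerase, had 7.18, 6.94 and 6.79 in the null lungs, against 6.63, 6.71 and 6.63 in the WT lungs. *Wdhd1*, which ties the helicase to the polymerase, stood at 0.29 and *Bard1*, the partner of Brca1, at 0.31, and both were higher in each null lung. With the mean of its 3 probe sets *Bard1* stood at 0.158.

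Among 24 genes of mitosis, all 24 were higher on average, against 49.2% of all genes. Their median difference was 0.247, but with a larger median standard error of 0.195. Null replicate 3 and WT replicate 1 had the highest median deviations of this list, 0.402 and 0.252. WT replicate 1 was the highest WT lung in 24 of 24 mitosis genes, against 32 of the 52 replication genes and 22.5% of all genes. It was above every null lung in 7 of 24, against 6 of 52, and for this the share of all genes was not computed. Whether the lists differ was not tested. *Cdk1* and *Mybl2* separated the genotypes, with differences of 0.30 and 0.33, and *Ccnb2* stood at 0.36 with an overlap. Of 13 inhibitors of the cell cycle, 5 were higher and 8 lower, with a median of -0.033, whereas 8 of the 13 lay above the median of their decile of signal. *Cdkn1c*, an imprinted inhibitor of cyclin-dependent kinases, had 7.42, 7.56 and 7.48 in the null lungs, against 7.69, 7.64 and 7.78 in the WT lungs. It was lower in each null lung, at -0.22 with a standard error of 0.078 and an unadjusted p of 0.0223 from limma (adjusted p = 0.89).

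**Figure D5:**
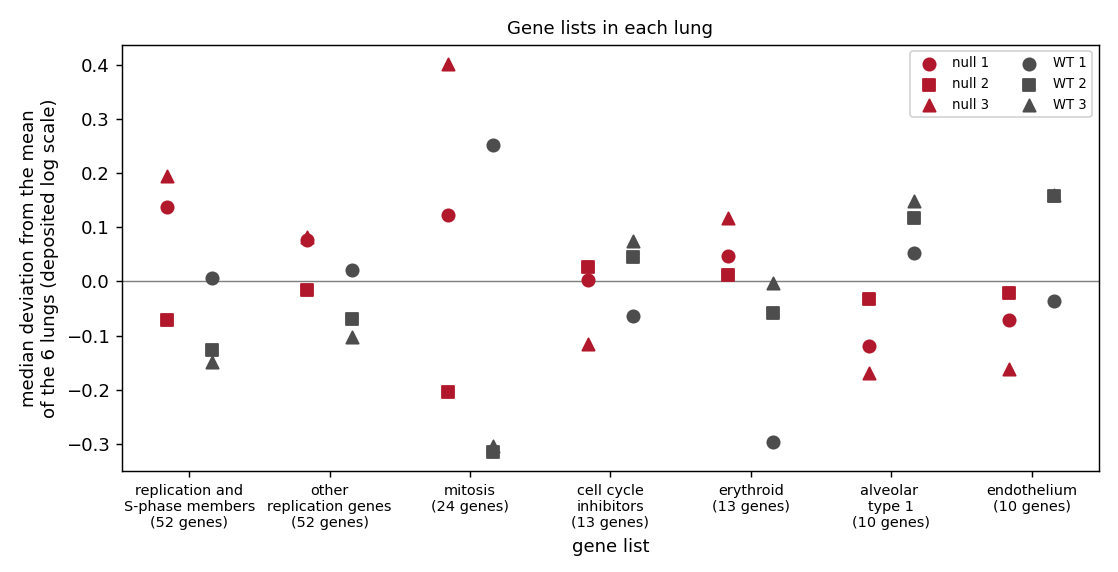
Median of each of 7 gene lists, as deviation of its genes from their 6-lung mean (vertical axis, deposited log scale), in each lung (points, null lungs red and left, WT lungs grey and right). For the 52 replication and S-phase genes null replicates 1, 2 and 3 lie at 0.138, -0.072 and 0.195, against 0.006, -0.127 and -0.149 in WT replicates 1, 2 and 3, and for mitosis null replicate 3 lies highest at 0.402 and WT replicate 1 next at 0.252.

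Markers of several cell types differed in their averages beside the replication genes. Of 13 measured erythroid genes, 11 had a higher null mean, against 49.2% of all genes, and 2, *Slc4a1* and *Ank1*, had a lower one. The median difference of the 13 was 0.147. Their average level was 5.02 to 5.25 in the null lungs, against 4.74 to 4.94 in the WT lungs. That average holds 2 embryonic globin genes with far larger differences, the only genes of the list that separated the genotypes (4.67% of all genes did so upward). Of these, *Hbb-y* had 5.82, 4.77 and 6.58 in the null lungs, against 4.62, 4.05 and 3.93 in the WT lungs, and its difference of 1.52 ranked 1 of all genes. *Hba-x* had 6.12, 5.82 and 6.47 in the null lungs, against 5.49, 5.32 and 5.63 in the WT lungs, a difference of 0.66. An average without these 2 was not computed. WT replicate 1, the WT lung with the highest replication genes, had the lowest erythroid mean. All 10 genes of alveolar type 1 cells had a lower null mean, at an average level of 9.19 to 9.38 in the null lungs and 9.43 to 9.53 in the WT lungs. All 10 endothelial genes were lower too, at 8.66 to 8.78 in the null lungs and 8.75 to 8.95 in the WT lungs, as were 9 of 10 mesenchymal genes, up to 9.04 in the null lungs and at 9.12 to 9.17 in the WT lungs. Macrophage genes were lower in 8 of 10, at 6.00 to 6.46 in the null lungs and 6.20 to 6.61 in the WT lungs, and alveolar type 2 genes in 5 of 10. Of the genes of club and multiciliated airway cells, 6 of 8 were lower, with a median of -0.120 and levels of 7.33 to 7.52 in the null lungs and 7.55 to 7.60 in the WT lungs. Many lung markers were bright, and in the brightest decile of signal 27.8% of all genes were higher in the null lungs. Set against the median of their own decile, 10 of 10 alveolar type 1, 8 of 10 endothelial, 7 of 10 mesenchymal, 8 of 10 macrophage and 5 of 8 airway genes were below it, and 10 of 13 erythroid genes above it. The lowest value in these lists was 2.81, in an erythroid gene, on arrays whose lowest deposited value was 0.29. The part of these cell types in the values of the replication genes was not tested.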

How the data were processed

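Total RNA of 6 whole lungs (3 *Tnrc6a* null, 3 WT, E18.5) was measured on Affymetrix arrays. The authors deposited 1 value for each of 35045 probe sets and lung as log2 per the labels. The submitters' processing notes name MAS5; no other step of it is known here. The array medians were 4.98 to 5.03, and values were used as deposited. Signal over background was not measured, and the number of arrays limits the precision. The 21789 probe sets with 1 symbol in the array annotation gave 19938 genes, the brightest probe set standing for a gene, with 21698 symbols updated by Entrez ID (GRCm38.p6). The fit used lmFit and eBayes with trend (limma 3.58.1, R 4.3.3) and Benjamini-Hochberg adjustment over all of them. The procedure was tested on simulated data with independent noise in each lung, which do not hold the likeness between single lungs seen here. Counts over a list are descriptions beside the share of all genes. The lungs are separate embryos. Promoters were from RefSeq, and plots and summaries were made in Python 3.11.15 with pandas 2.3.3 and matplotlib 3.10.9.

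The members and lists were chosen with earlier results of these data known. All members could be named. Values in each lung were given for the members with the smallest p of a role, those at an unadjusted p under 0.05 or without overlap, the 3 lowest, *Pcna*, *Mcm2*, *E2f1* and *Tnrc6a*, with a few more chosen after their values were seen. Some listed genes are not reported here. Alternatives were other normalizations, leaving out dim genes, averaging probe sets, other eBayes settings, array weights, the replicate block, the methods' t-test, and leaving out lungs.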

Additional observations from a re-analysis of the deposited data

How the results depend on the processing

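Over the 20 alternatives the adjusted p was under 0.05 for 0 of the 52 genes in limma or in the methods' t-test, with a smallest adjusted p between 0.121 and 0.999, and of all genes 0 to 2 passed, except 56 with null replicate 3 and WT replicate 1 as a block and 23 without both. The median difference of the 52 lay between 0.117 and 0.235. Among the 33 genes above the median signal, 30 were higher on average (33.5% of all genes in that fit were), 3 separated the genotypes upward (2.76%) and 2 were higher at an unadjusted p under 0.05 (1.51%). That last count was 1 with median centring over all probe sets (1.58% of all genes), 14 with array weights (5.21%), 13 with the block (6.48%) and 12 without both lungs (5.78%), where 25 separated the genotypes (18.2% of all genes did). These 2 lungs were found from the data. Leaving out each lung gave 44 to 51 genes higher on average (43.6% to 54.2% of all genes), 6 to 27 without overlap (8.04% to 13.9%) and 2 to 14 at an unadjusted p under 0.05 (1.6% to 5.91%). The labels number the lungs but name no pairs. The deviations of same-numbered lungs correlated at -0.295, 0.361 and -0.162. With 3 lungs of each genotype these values cannot settle whether same-numbered lungs are paired. With the replicate block 3 genes were higher at an unadjusted p under 0.05 (1.98% of all genes).

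*E2f1* went to 0.008 with quantile normalization over all probe sets, 0.032 over named probe sets, 0.003 with median centring over named probe sets and 0.013 with cyclic loess, an alternative added after the data were seen. *Pold1* went to -0.017 with median centring over all probe sets, -0.022 with array weights and -0.015 without WT replicate 1 and null replicate 3, and *Uhrf1* to -0.044 with array weights and -0.145 without those lungs, where *Rpa2* stood at -0.260 and *E2f1* at -0.080. *Slbp* went to -0.002 with the mean of probe sets, and the median of the G1/S control genes to -0.017 among genes above the median signal. Leaving out 1 lung turned these and a few others, over -0.05 to 0.085 for *Pold1*, -0.008 to 0.302 for *Cdc7*, -0.057 to 0.213 for *Pole2*, -0.063 to 0.222 for *Rrm1*, -0.097 to 0.193 for *Uhrf1*, -0.062 to 0.163 for *Slbp*, -0.068 to 0.032 for *E2f1* and -0.185 to 0.045 for *Rpa2*. For *Tnrc6a* the adjusted p was 0.0552 from limma with WT replicate 3 left out and 0.551 by the methods' t-test. The causes were not tested.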
